A study of Mus musculus with 15 samples.

Results

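Purkinje cells are the output neurons of the cerebellar cortex, and this account follows 9 of their genes, namely Pvalb, Calb1, Pcp2, Pcp4, Car8, Itpr1, Rora, Foxp2 and Skor2, through cerebella with and without the chemokine receptor CXCR4. The 9 genes were listed as Purkinje cell markers, and the list was built around Pvalb because its signal was higher in KO than in WT on these arrays, so that the members were selected on that measured difference. That difference is given below as a description, with no conclusion drawn from its test. Of the 9 genes, 6 had a probe named for them among 16593 measured genes. Car8, Itpr1 and Skor2 had none and were not analysed here.

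RNA came from whole cerebella of C57BL/6 mice on postnatal day 1 (P1), with 1 Illumina MouseRef-8 v2 BeadChip array for each of 8 WT and 7 KO samples. KO mice carried Cxcr4 flox/flox and Sox1-Cre, which acts throughout the neural tube. WT mice were littermates without Cre. Loss of Cxcr4 by cell type was not measured on these arrays. The labels call the groups wildtype and Cxcr4 null and give no sex.

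Purkinje cells are born in the embryo from Ptf1a-positive progenitors, gather below the external granule layer and build their dendrites only after birth. Transcription factors such as Skor2, Foxp2 and Rora act early in this sequence, and the calcium buffer calbindin (Calb1) is made before birth. Parvalbumin (Pvalb), a second EF-hand calcium buffer, marks fast-firing neurons and is usually counted among the late genes of the cell. Pcp2 and Pcp4 encode small regulators of G proteins and of calmodulin. Itpr1 encodes the IP3 receptor that releases calcium in dendrites, and Car8 a protein that binds this receptor.

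RefSeq promoters (GRCm38.p6, 250 bases before to 50 after a transcript start) were at hand for 4 members. Those of Pvalb, Pcp2 and Pcp4 are shown because Rora is known in the mouse to activate Pcp2 and Pcp4 through sites with the core AGGTCA, while Pvalb is the member whose signal differed. Capitals mark AGGTCA on either strand, which is TGACCT where it lies on the other strand.
Pvalb, chr15:78206351-78206650, minus strand: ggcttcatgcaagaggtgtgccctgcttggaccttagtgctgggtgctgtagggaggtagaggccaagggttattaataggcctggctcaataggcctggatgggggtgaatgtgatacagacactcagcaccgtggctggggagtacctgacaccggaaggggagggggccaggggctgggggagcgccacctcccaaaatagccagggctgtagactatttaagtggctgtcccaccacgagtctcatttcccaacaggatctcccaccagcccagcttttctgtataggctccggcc
Pcp2, chr8:3625498-3625797, minus strand: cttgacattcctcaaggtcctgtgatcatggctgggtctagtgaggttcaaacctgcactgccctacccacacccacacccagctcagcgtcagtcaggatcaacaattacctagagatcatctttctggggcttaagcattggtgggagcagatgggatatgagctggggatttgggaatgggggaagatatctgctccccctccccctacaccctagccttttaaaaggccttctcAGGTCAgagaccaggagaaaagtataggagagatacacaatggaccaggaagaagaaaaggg
Pcp4, chr16:96467356-96467655, plus strand: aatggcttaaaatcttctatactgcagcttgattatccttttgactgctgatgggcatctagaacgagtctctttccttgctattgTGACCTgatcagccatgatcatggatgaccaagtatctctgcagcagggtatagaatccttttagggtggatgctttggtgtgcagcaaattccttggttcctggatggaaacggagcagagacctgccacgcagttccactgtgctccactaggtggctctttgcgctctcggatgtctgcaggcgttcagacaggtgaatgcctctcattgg
The letters AGGTCA began at position -12 from the start in the Pcp2 window and lay on the other strand at -164 in the Pcp4 window. They were in 3 of 4 windows of Pcp2, which overlap, in 1 of 1 of Pcp4, in 0 of 2 of Pvalb and in 0 of 1 of Rora. Over all 32851 promoters, 16.3% held these letters. The TATA-box letters TATAAA, also searched on both strands, were in 1 window of Pcp2 and in none of the other members, against 13.6% of all promoters. The forkhead letters TGTTTAC were in no window of these members and in 3.65% of all promoters. The E-box letters CAGCTG were in none of the windows either, against 16.3% of all. A match describes letters only, and no match says nothing about a factor.

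Signals are given as log2 values scaled to a common array median of 6.84, and a probe at or below that median was treated as dim. KO and WT were set against each other in limma, and p-values were adjusted over every measured gene by the Benjamini-Hochberg procedure. Of all genes, 8 were higher in KO (0.0482%) and 13 lower (0.0783%) at an adjusted p under 0.05. At an unadjusted p under 0.05, 508 genes were higher (3.06%) and 436 lower (2.63%), the shares against which the lists below are to be read. Cxcr4 itself lay between 8.80 and 9.79 on the WT arrays and between 6.45 and 6.89 on the KO arrays. The arrays numbered 1 to 4 and 5 to 8 differed in 3451 genes (20.8%) with genotype in the model, so that these sets are also shown apart. Xist, the RNA of the inactive X chromosome, was above the common median on 6 of 8 WT and 1 of 7 KO arrays. KO arrays 6, 7 and 8 stood apart by a mean log2 signal of 19 meninges genes of 6.82 to 7.40, against 8.09 to 9.53 in WT and 8.31 to 9.45 on the other KO arrays. Fewer cells of a type and less RNA per cell cannot be told apart in such whole-tissue samples.

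Pvalb was the member whose signal set KO apart from WT. No further probe was named for Pvalb, so its difference could not be compared between probes. Its log2 signal in WT was 9.65, 9.10, 9.61, 9.01, 9.51, 9.34, 9.03 and 9.41 on arrays 1 to 8, and in KO it was 9.79, 9.88, 9.73, 9.86, 10.13, 10.28 and 10.44 on arrays 2 to 8. Every KO array lay above every WT array, as held for 13 of all genes (0.0783%). The mean was 9.33 ± 0.26 in WT (SD, n = 8) and 10.02 ± 0.27 in KO (SD, n = 7). The log2 difference was 0.68 with a standard error of 0.12, which is a fold of 1.61 (95% interval 1.35 to 1.91 from limma). By size this was the fourth of all positive changes and the second among the 8 genes called higher.

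**Figure D1:**
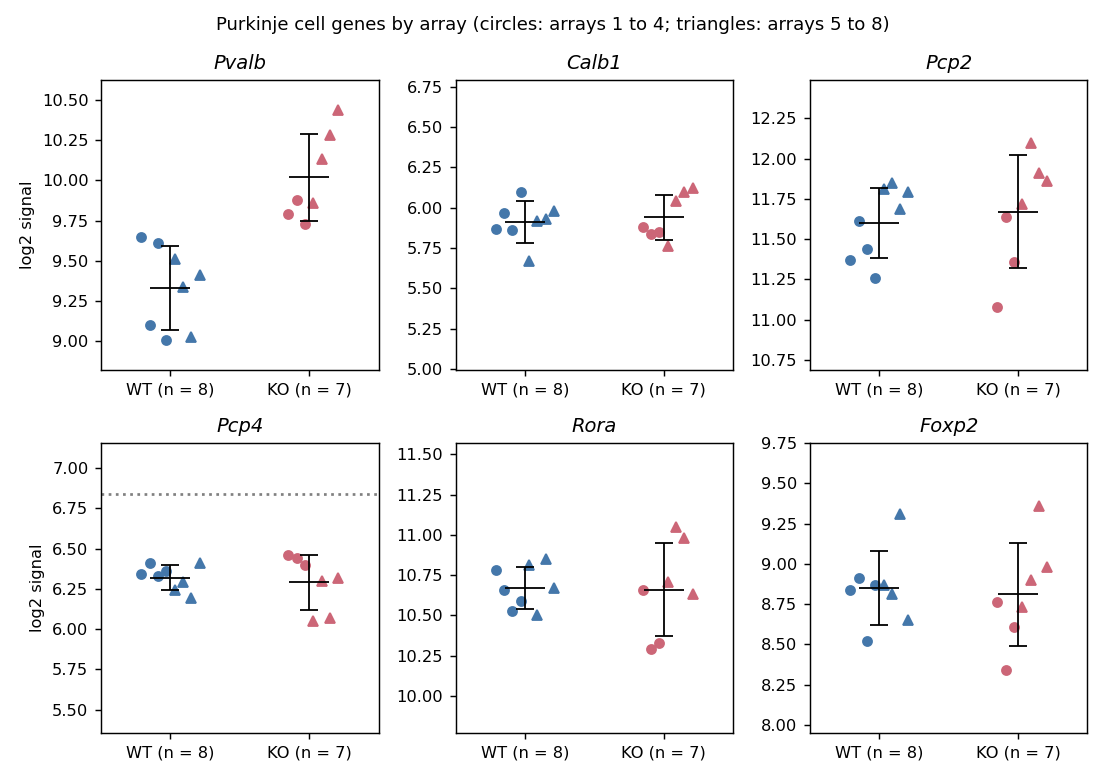
Log2 signal of the 6 measured members on each array, with a line and bars for the mean ± SD of each group. KO points of Pvalb lie between 9.73 and 10.44, above all WT points, while the groups overlap for the other 5 genes, and Pcp4 stays below the dotted common median of 6.84.

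Since Xist differed between the groups, Pvalb is also given by Xist level, as a description. Where Xist was low, Pvalb was 9.34 and 9.51 in 2 WT samples and 9.73 to 10.44 in 6 KO samples. Where Xist was high, it was 9.01 to 9.65 in 6 WT samples and 10.28 in 1 KO sample. With the Xist signal as a covariate the log2 fold change was 0.69 (standard error 0.16), and the adjusted p from limma was 0.147 against 0.0156 without it. In that fit 0.0121% of all genes were called higher.

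The size of the Pvalb difference varied among the KO arrays. On KO arrays 6, 7 and 8, those low in meninges genes, Pvalb was 10.28 ± 0.16 (SD, n = 3), and on the other KO arrays it was 9.82 ± 0.067 (SD, n = 4). The choroid plexus transcript Ttr was also low on these 3 arrays, at 7.20 to 8.62 against 9.19 to 15.85 in WT. Leaving these 3 arrays out, a choice made after the data were seen, brought the log2 difference to 0.48 (limma, SE 0.12, adjusted p = 0.181). With the mean of the meninges genes as a covariate it was 0.58 (adjusted p = 0.041 from limma).

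Calbindin, the buffer most often used to stain Purkinje cells, had only a dim probe here. The Calb1 probe had a log2 signal between 5.67 and 6.10 in WT and between 5.76 and 6.12 in KO, below the common median on every array. Its mean was 5.91 ± 0.13 in WT (SD, n = 8) and 5.94 ± 0.14 in KO (SD, n = 7), with a log2 fold change of 0.029 (95% interval -0.12 to 0.18 from limma). The groups overlapped, and whether so dim a probe follows its transcript was not tested.

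Among 35 measured EF-hand calcium-binding genes, Pvalb was the only one called higher in KO and none was lower. At an unadjusted p under 0.05 from limma, 2 were higher, Pvalb included, and 4 lower (3.06% and 2.63% of all genes), and 11 were dim on all arrays, Calb1 and Ocm, the parvalbumin relative oncomodulin, among them. The median log2 fold change without Pvalb was 0.013, against 0.015 over all genes. S100a6, a small calcium sensor of the S100 family, had -0.50 as its log2 fold change (adjusted p = 0.729 from limma). For Calu, a calcium-binding protein of the secretory pathway, it was -0.14 (adjusted p = 0.729).

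Pcp2, a GoLoco protein found in Purkinje cells and retinal bipolar cells, had overlapping signals in both groups. Its log2 signal was 11.37, 11.61, 11.44, 11.26, 11.81, 11.85, 11.69 and 11.79 on WT arrays 1 to 8 and 11.08, 11.64, 11.36, 11.72, 12.10, 11.91 and 11.86 on KO arrays 2 to 8. The lowest and the highest value were both from KO. The mean was 11.60 ± 0.22 in WT (SD, n = 8) and 11.67 ± 0.35 in KO (SD, n = 7), and the log2 fold change was 0.066 (standard error 0.13). Its 95% interval from limma ran from -0.20 to 0.34. Of 13 measured regulators of Go and Gi proteins listed beside Pcp2, none was called in either direction by limma, and none had an unadjusted p under 0.05. Rgs4, which speeds GTP hydrolysis by these proteins, had -0.22 as its log2 fold change (adjusted p = 0.941). Gpsm2 and Gpsm1, which carry the same GoLoco motif as Pcp2, had 0.097 and 0.13 (adjusted p = 0.991 for each).

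Pcp4, an IQ-motif protein that speeds calcium exchange on calmodulin, was dim, with a log2 signal of 6.19 to 6.41 in WT and 6.05 to 6.46 in KO. Its log2 fold change was -0.028 (95% interval -0.17 to 0.12 from limma), and the groups overlapped. Of 17 measured calmodulin regulators, none was called by limma, with 2 higher and 1 lower at an unadjusted p under 0.05. Ppp3r1, the regulatory subunit of calcineurin, was 12.07 ± 0.14 in WT (SD, n = 8) and 11.84 ± 0.099 in KO (SD, n = 7), and its log2 fold change was -0.23 (adjusted p = 0.395). Gap43, a growth-cone protein that binds calmodulin, had 0.31 (adjusted p = 0.796). Camk2b, a calmodulin-dependent kinase subunit, had 0.19 (adjusted p = 0.85).

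The calcium-release pathway was followed without Itpr1 and Car8. Of 21 measured genes of the mGluR1 and IP3 cascade, none was called by limma in either direction, and 1 was higher and none lower at an unadjusted p under 0.05. That gene was Ryr1, a calcium-release channel, with a log2 fold change of 0.26 (adjusted p = 0.845). Cacna1a, the P/Q-type calcium channel of Purkinje cells, had 0.22 (adjusted p = 0.929), and Plcb1, a phospholipase that makes IP3, 0.12 (adjusted p = 0.891) at a dim signal.

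Rora, the nuclear receptor that drives maturation of Purkinje cells, had a log2 signal of 10.78, 10.66, 10.53, 10.59, 10.81, 10.50, 10.85 and 10.67 on WT arrays 1 to 8. In KO it was 10.66, 10.29, 10.33, 10.71, 11.05, 10.98 and 10.63 on arrays 2 to 8. KO arrays held both the highest and the lowest values, and the means were 10.67 ± 0.13 (SD, n = 8) and 10.66 ± 0.29 (SD, n = 7). The log2 fold change was -0.011 (95% interval -0.22 to 0.20 from limma). A dimmer Rora probe, at 6.61 in WT and 6.67 in KO, gave 0.057.

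Foxp2, a forkhead factor of postmitotic Purkinje cells, lay at 8.84, 8.91, 8.52, 8.87, 8.87, 8.81, 9.31 and 8.65 on WT arrays 1 to 8. On KO arrays 2 to 8 its log2 signal was 8.76, 8.34, 8.61, 8.73, 8.90, 9.36 and 8.98. The groups overlapped, with means of 8.85 ± 0.23 in WT (SD, n = 8) and 8.81 ± 0.32 in KO (SD, n = 7) and a log2 fold change of -0.035 (95% interval -0.29 to 0.22 from limma). Other probes of Foxp2, at WT means of 8.24, 8.14 and 6.48, gave log2 fold changes of 0.020, -0.075 and 0.011. Apart from Pvalb, on which the list was selected, no measured member was called by limma, and none had an unadjusted p under 0.05.

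The question posed by Pvalb is whether other Purkinje genes shared its difference. Of 25 measured early Purkinje genes, none was called by limma, with none higher and 1 lower at an unadjusted p under 0.05. The median log2 fold change of these early genes was -0.028. The gene lowest in KO was Lhx5, a LIM factor of early Purkinje cells and interneurons, at 9.52 ± 0.17 in WT (SD, n = 8) and 9.09 ± 0.45 in KO (SD, n = 7), and its log2 fold change was -0.43 (adjusted p = 0.58). Shh, the mitogen that Purkinje cells send to granule cell precursors, had -0.21 (adjusted p = 0.896), and Slc32a1, the vesicular GABA transporter, -0.18 (adjusted p = 0.923). Slc32a1 and Gad1, both counted as early, are also in the inhibitory interneuron list below, and Plcb4 is in the early and the late list. Log2 fold changes of the early genes ran from -0.43 to 0.14, with 8 above and 17 below 0. Over all genes, 57.5% were above 0 and 42.5% below.

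Of 27 measured late Purkinje genes, Pvalb was called higher by limma and none lower, with 4 higher, Pvalb included, and none lower at an unadjusted p under 0.05 (3.06% and 2.63% of all genes). Without Pvalb, the other 26 had a median log2 fold change of -0.011 and a range of -0.14 to 0.41. Of these, 12 were above and 14 below 0, against 57.5% above 0 over all genes. Aldoc (zebrin II), which marks a subset of Purkinje cells and is also made by astrocytes, came next to Pvalb. It was 11.38 ± 0.27 in WT (SD, n = 8) and 11.79 ± 0.21 in KO (SD, n = 7), and its log2 fold change was 0.41 (adjusted p = 0.304), and the groups overlapped. Icmt, an enzyme that methylates prenylated proteins, had 0.22 (adjusted p = 0.53). Hpca, also among the 4 higher genes at an unadjusted p under 0.05 from limma, had 0.22 (adjusted p = 0.729). Cacna1a, in this list too, had 0.22 (adjusted p = 0.929). Slc1a6, the glutamate transporter of Purkinje cells, had -0.033, Rgs8 -0.090 and Grid2ip, a scaffold at parallel fibre synapses, -0.14, each with an adjusted p of 0.991 or 0.998.

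**Figure D2:**
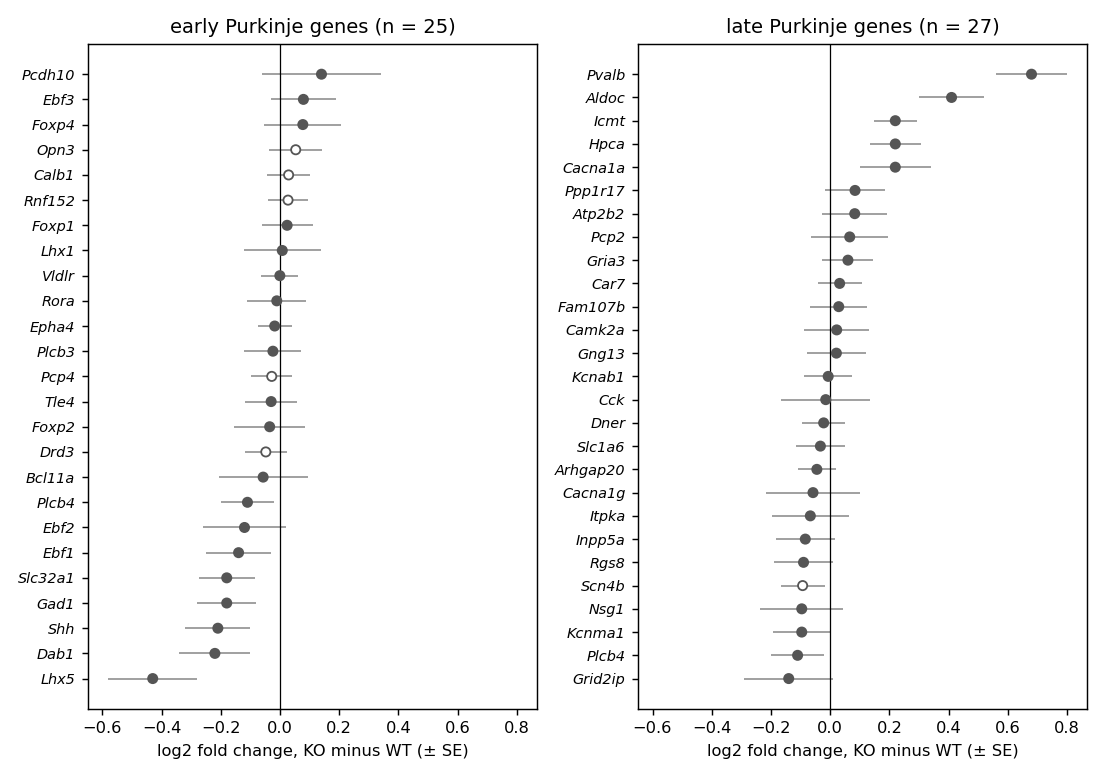
Log2 fold change of KO against WT (± standard error from limma) for 25 early and 27 late Purkinje genes, with open points for genes dim on all arrays. Plcb4, at -0.11, is in both lists. Pvalb lies at 0.68, followed by Aldoc at 0.41, and the early genes run from -0.43 to 0.14.

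Pvalb also belongs to genes that mature with fast firing in several neuron types. Of 22 measured genes of this kind, Pvalb was called higher by limma and none lower, with 4 higher, Pvalb included, and none lower at an unadjusted p under 0.05 (3.06% and 2.63% of all genes) and 8 dim on all arrays. The median without Pvalb was 0.027. Bcan, a proteoglycan of perineuronal nets that glia also make, was 10.58 ± 0.20 in WT (SD, n = 8) and 10.99 ± 0.23 in KO (SD, n = 7), and its log2 fold change was 0.41 (adjusted p = 0.195). Acan, another proteoglycan of these nets, had 0.16 (adjusted p = 0.71) at a dim signal.

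The difference between the array sets is a measure that the choice of the list did not use. The division by array number was, however, chosen with earlier results of these data known. With genotype in the model, Pcp2 was higher on arrays 5 to 8 by 0.45 on the log2 scale (standard error 0.08, adjusted p = 0.00102 from limma), as were 2712 of all genes (16.3%), while 4.45% were lower. Median scaling matters here, since the Pcp2 difference was 0.31 (adjusted p = 0.0327) after quantile normalization and 0.29 (adjusted p = 0.0155) without normalization. The share of calls that were higher on arrays 5 to 8 was 78.6% after median scaling, 45.2% after quantile normalization and 9.17% without normalization, where the median of all genes was -0.10. Rora and Foxp2 had 0.23 (adjusted p = 0.076) and 0.26 (adjusted p = 0.0967), and Pvalb 0.16 (adjusted p = 0.35). Pcp4 had -0.16 (adjusted p = 0.0618) and, without normalization, -0.31 (adjusted p = 0.00133).

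Within the sets, Pvalb was higher in KO by 0.46 on arrays 1 to 4 (WT 9.35 ± 0.34, SD, n = 4; KO 9.80 ± 0.073, SD, n = 3). On arrays 5 to 8 it was higher by 0.86 (WT 9.32 ± 0.21, SD, n = 4; KO 10.18 ± 0.25, SD, n = 4). The adjusted p from limma was 0.463 within arrays 1 to 4, where 0.0542% of all genes were called higher, and 0.0163 within arrays 5 to 8, where 0.0482% were. Both rest on the KO and WT values by which Pvalb was selected and are given as a description. The difference between the sets was 0.40 (standard error 0.22, adjusted p = 0.557 from limma, unadjusted p = 0.0787). For Rora the KO difference was -0.21 on arrays 1 to 4 and 0.13 on arrays 5 to 8, a difference of 0.35 (standard error 0.16, adjusted p = 0.492). Foxp2 had -0.21 and 0.082 (adjusted p of the difference 0.659) and Pcp2 -0.059 and 0.11 (adjusted p = 0.74). No gene of all measured had a set-dependent genotype effect by limma at an adjusted p under 0.05 (0.0%), although 1654 (9.97%) had an unadjusted p under 0.05. KO arrays 6, 7 and 8, low in meninges genes, all belong to the later set.

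**Figure D3:**
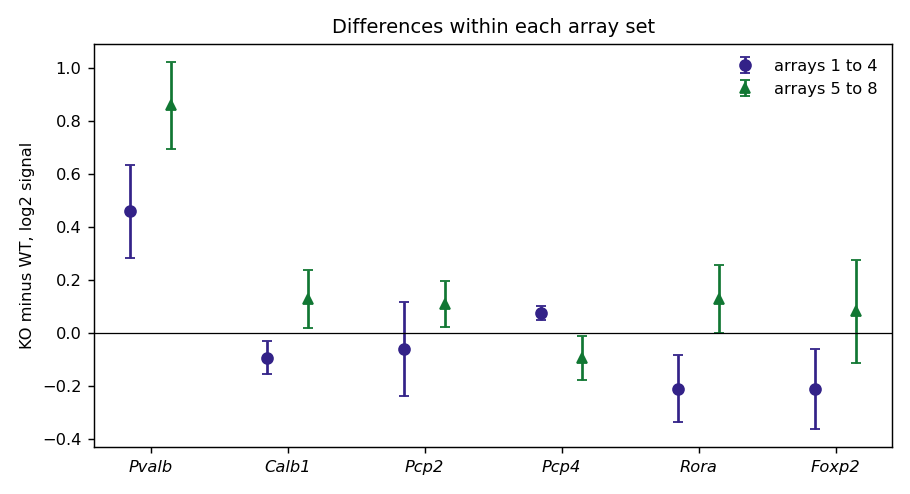
Difference of mean log2 signal, KO minus WT, within arrays 1 to 4 (circles, 4 WT and 3 KO) and 5 to 8 (triangles, 4 WT and 4 KO), with bars for the standard error of the difference from both groups' SDs. Pvalb is above 0 in both sets, at 0.46 and 0.86, while Rora is at -0.21 and 0.13.

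Other members had higher mean signals on KO arrays 6, 7 and 8 as well, Pcp4 excepted. Pcp2 was 11.96 ± 0.12 (SD, n = 3) there and 11.45 ± 0.29 (SD, n = 4) on the other KO arrays, and Rora was 10.88 ± 0.22 and 10.50 ± 0.22. Foxp2 was 9.08 ± 0.25 and 8.61 ± 0.19 on the same arrays, and Pcp4 6.23 ± 0.14 and 6.34 ± 0.19. Higher signals there were not particular to the members. The inhibitory interneuron list had means of 8.52 to 8.61 on KO arrays 6, 7 and 8, against 8.25 to 8.48 on the other KO arrays. The granule cell list had 8.81 to 8.83 against 8.72 to 8.78. The list of astrocytes and Bergmann glia was lower, at 9.15 to 9.23 against 9.28 to 9.36, as were those of meninges and choroid plexus. The mean over the 5 measured members other than Pvalb was 8.78 to 8.89 on these 3 arrays, 8.51 to 8.59 on the other KO arrays and 8.53 to 8.79 in WT. KO arrays 6 to 8 thus lay just below or above the top of the WT range, with the lowest of them at 8.78 and the highest WT array at 8.79. Without these 3 arrays the log2 fold change was -0.15 for Pcp2, -0.18 for Rora, -0.24 for Foxp2, -0.081 for Calb1 and 0.018 for Pcp4, at adjusted p of 0.831 to 0.998 from limma. The median was then -0.14 for the early Purkinje genes and -0.027 for the late ones without Pvalb. With the meninges mean as a covariate in place of the exclusion, Pcp2 had -0.087, Rora -0.13 and Foxp2 -0.19 (adjusted p of 0.848 to 0.962 from limma). The medians in that fit were -0.087 for the early and -0.066 for the late genes.

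**Figure D4:**
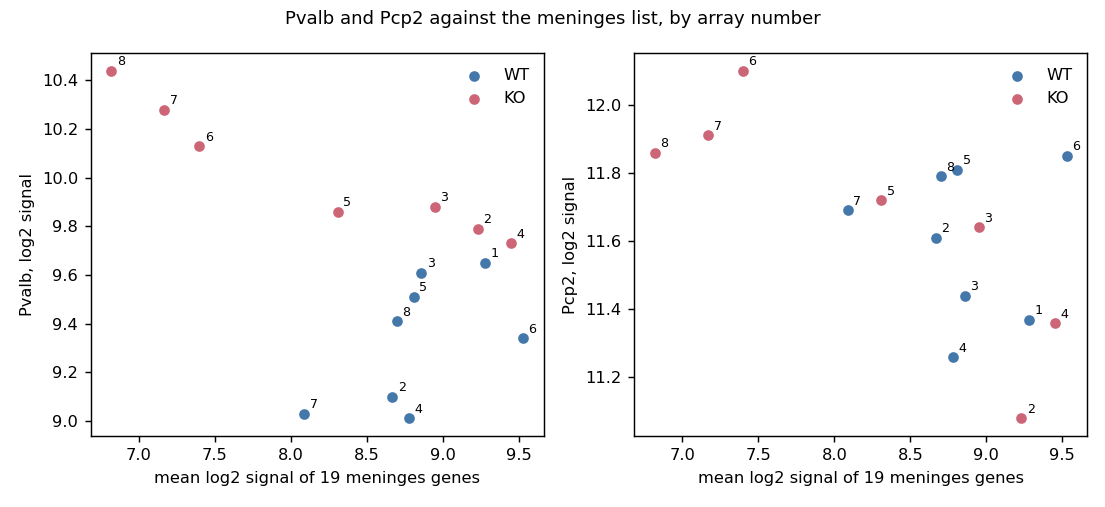
Log2 signal of Pvalb (left) and Pcp2 (right) against the mean log2 signal of 19 meninges genes, 1 point per array with its number. KO arrays 6, 7 and 8 lie at 6.82 to 7.40 on the horizontal axis, and the other KO arrays lie among the WT arrays there but above them for Pvalb.

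Markers of other cells that can make Pvalb, or that surround Purkinje cells, were read as whole lists. Of 27 measured skeletal muscle genes, a tissue rich in parvalbumin, none was called by limma (1 higher and 2 lower at an unadjusted p under 0.05) and 12 were dim on all arrays, Ckm, Myh1 and Casq1 among them. The mean log2 signal of the muscle list ran from 6.83 to 6.89 on WT arrays and from 6.88 to 6.93 on KO arrays. Of the muscle genes 20 had a positive and 7 a negative log2 fold change, with a median of 0.057 against 0.015 over all genes. The developmental myosin genes Myh8 and Myl4 had -0.21 on the log2 scale (adjusted p = 0.865) and -0.040 (adjusted p = 0.997). Of 18 genes of deep nuclei and brainstem projection neurons, none was called (1 higher and none lower at an unadjusted p under 0.05), with mean signals of 7.49 to 7.78 in WT and 7.48 to 7.75 in KO. Meis1, a homeobox factor, and Slc17a6, a glutamate transporter of synaptic vesicles, had 0.21 (adjusted p = 0.558) and -0.085 (adjusted p = 0.991).

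Called genes of the other cerebellar lists are to be read against 0.0482% higher and 0.0783% lower over all genes. At an unadjusted p under 0.05 from limma, 1 of 16 inhibitory interneuron genes was higher and 5 were lower. Of 17 granule cell genes, 3 were higher and none lower. Of 15 genes of astrocytes and Bergmann glia, 1 was higher and 3 were lower. The higher one was Aldoc, already counted among the late Purkinje genes. Over all genes these shares were 3.06% and 2.63%. In the list of 16 inhibitory interneuron genes, Ptf1a and Neurog2 were lower in KO (by limma, -0.73 and -0.58 on the log2 scale at adjusted p = 0.00453 and 0.00248) and none was higher. Ptf1a is also made by the progenitors of Purkinje cells, and Neurog2 acts in that lineage too, so neither is particular to interneurons. Barhl1, a homeobox factor, was the only one of 17 granule cell genes called, at 0.50 (adjusted p = 0.0137). Gdf10, a factor of Bergmann glia, was the only one of 15 genes of astrocytes and Bergmann glia called, at -0.78 (adjusted p = 0.000162). None of 10 genes of cerebellar identity was called (none higher and 1 lower at an unadjusted p under 0.05), and their mean signals ran from 10.22 to 10.46 on WT arrays and from 10.08 to 10.43 on KO arrays.

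No gene of the meninges, choroid plexus or erythroid lists was called by limma. Of 19 meninges genes, 18 had a negative log2 fold change, with a median of -0.57 and 6 lower at an unadjusted p under 0.05. Over all genes, 42.5% were negative and 2.63% lower at that threshold. Of 14 choroid plexus genes the median was 0.11 with none past an unadjusted p under 0.05, and of 15 erythroid genes it was 0.018 with 1 lower. Mean signals of the choroid plexus list ran from 7.33 to 9.66 in WT and from 7.16 to 9.91 in KO, and those of the erythroid list from 7.03 to 7.25 and from 6.94 to 7.17. With Ttr, the choroid plexus transcript, as a covariate, the log2 fold change of Pvalb was 0.67 (standard error 0.11, adjusted p = 0.00633 from limma). No fit held the erythroid genes.

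Among arrays of the same genotype, the bright members were compared with each other over residuals from the genotype means of 15 arrays. Of 14 relations computed, Rora and Foxp2 gave a Pearson r of 0.74 (permutation test, p = 0.00355, adjusted p = 0.0497) and a Spearman rho of 0.66 (permutation p = 0.0173, adjusted p = 0.242). The r was 0.67 without the 2 arrays farthest in Foxp2, 0.73 within arrays 1 to 4 and 0.51 within arrays 5 to 8. Both genes had higher means on KO arrays 6, 7 and 8 than on the other KO arrays (Rora 10.88 and 10.50, Foxp2 9.08 and 8.61). The permutation, made within genotype, did not keep these arrays apart, so its p does not show a relation particular to the 2 genes. Pvalb gave 0.43 with Pcp2 (permutation p = 0.129, adjusted p = 0.273), 0.32 with Rora (permutation p = 0.27) and 0.11 with Foxp2 (permutation p = 0.711). With the mean of the meninges genes Pvalb gave -0.46 (permutation p = 0.108) and -0.17 without the 2 farthest arrays, with 0.48 within arrays 1 to 4 and -0.30 within arrays 5 to 8. With the mean of the muscle genes it gave 0.078 (permutation p = 0.791), 0.54 without the 2 farthest arrays, and -0.58 and 0.29 within the sets. With the choroid plexus and erythroid means it gave -0.43 (permutation p = 0.124) and 0.39 (permutation p = 0.172).

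By the same residuals, the genes most like Pvalb among those above the median signal were Spsb4 and Ammecr1l (r = 0.79 each over 15 arrays), Phlda1 and Mrpl20 (0.77 each) and Leng1 (0.76). None of these was called between KO and WT, and their log2 fold changes ran from -0.041 for Phlda1 to 0.17 for Leng1. The genes most like the mean of the other 5 members, the dim Calb1 and Pcp4 included, were Tro, Prr7 and Aloxe3 (r = 0.93 each) and Faap100 and Mrgpre (0.92 each). Over residuals from the means of genotype and array set, r was 0.79 (Mrgpre) to 0.86 (Prr7) for these genes. For the genes most like Pvalb it was 0.70 (Mrpl20) to 0.85 (Leng1). Both lists are descriptions, chosen as the highest of many values.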

How the data were processed

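Expression was measured in P1 cerebella of 8 WT and 7 KO mice, described as biological replicates, and samples were grouped by their titles. The authors labelled RNA with biotin and extracted signals with GenomeStudio. They deposited intensity values for 25697 probes without normalization between arrays, with array medians of 97.3 to 122.9, and log2 values shifted to a common median, which equal the log2 of the former to within 6.2e-05 once centred. No detection p was used. Precision rests on how many arrays each group has. Alternatives changed the normalization, background correction, probe choice, filter, weights, blocks, covariates and the arrays included.

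Intensities were log2 transformed and scaled to the median of 6.84. Of the probes, 23978 had 1 symbol and 1719 none in the platform annotation, updated through GRCm38.p6 identifiers. The brightest probe stood for each of 16593 genes. KO and WT were compared in limma 3.58.1 (R 4.3.3) with Benjamini-Hochberg adjustment and a threshold of 0.05. The 95% intervals use limma's moderated standard errors. Correlations used 100000 permutations within genotype. Remaining steps were run in Python 3.11.15 with pandas 2.3.3 and scipy 1.17.1.

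The members, 16 further gene lists, written from general knowledge, the division by array number and the alternatives were chosen with earlier results of these data known. Named genes are the members, genes past the threshold, the 3 with the lowest p of each Purkinje, calcium or firing list, the 2 brightest of each other list and the genes most like the members. Others were named after their values were seen, such as Slc1a6, Rgs8, Grid2ip, Hpca, Ocm, Ckm, Xist and Ttr. On simulated data of 16593 independent genes, limma recovered 38% of 100 genes changed by 0.3 and 95% of 100 changed by 0.6, with 3 false calls.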

Additional observations from a re-analysis of the deposited data

Results flagged for a closer look

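In the WT group, Bcan had a log2 signal of 11.04 on array 7, far from 10.41 to 10.64 on the other 7 WT arrays. Of 48 groups of arrays looked at in this way, 1 held such an array, and chance alone flags about 1 in 20 groups.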

How the results depend on the processing

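The log2 fold change of Pvalb stayed between 0.46 and 0.86 over all alternatives. Its adjusted p from limma missed the threshold within arrays 1 to 4 (0.46, adjusted p = 0.463), after adding Xist to the model (0.69, adjusted p = 0.147) and without KO arrays 6, 7 and 8 (0.48, adjusted p = 0.181), where in each case 0 members were called higher instead of 1. It was 0.61 to 0.73 when each array was left out in turn (adjusted p 0.0113 to 0.0462). Because Pvalb was selected on this same difference, these p-values describe the fits and do not test its rise. No member was lower under any alternative, and none of the 5 other measured members was called in any that was run for it (Calb1 and Pcp4 drop out without dim probes), with log2 fold changes from -0.24 (Foxp2) to 0.16 (Pcp2).

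Genes higher in KO numbered 8, and were 5 with the replicate number as a block, 15 with the array set as a block, 2 with Xist, 13 with the meninges mean, 14 without KO arrays 6, 7 and 8, and 7 to 11 when each array was left out. Genes lower in KO numbered 13, and were 7 without normalization, 7 with the mean of all probes, 20 with the array set as a block, 37 within arrays 5 to 8, 20 with the meninges mean, and 10 to 19 when each array was left out. Array numbers 5 to 8 differed from 1 to 4 in 1606 genes after quantile normalization, against 3451. A set-dependent genotype effect was found for 1 gene with array weights, 4 with trend and robust settings and 0 to 254 when each array was left out, where 254 came without KO array 5, 10 without WT array 7 and 2 without KO array 3. The causes were not tested. Covariates of Ttr and the meninges mean and the exclusion of 3 KO arrays were chosen after seeing the data.

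The labels do not say whether replicate numbers pair the samples. Deviations of same-numbered arrays correlated at -0.20 to 0.39, and 1 of 7 numbered WT arrays correlated best with its own number. Such values cannot exclude a pairing, since paired samples need not deviate alike. With the replicate block Pvalb had 0.73 (adjusted p = 0.0253 from limma).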
